A study of Homo sapiens with 12 samples.

Results

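The genes described here serve the interferon response and the presentation of antigens by class I molecules of the major histocompatibility complex. They were listed by symbol, and each gene was read from the probe sets that name it and no other gene. Of the 43 listed genes 42 were measured, among 19775 genes on the array: all 14 class I antigen presentation genes, and 28 of the 29 interferon-stimulated genes. STAT2 was not analysed here. The cells were IMR-90, human lung fibroblasts that divide a limited number of times in culture, obtained at population doubling 27. RNA of 12 cultures was hybridised to 12 Affymetrix arrays in 4 groups of 3: young cells at 20% oxygen and at 3% oxygen (population doubling 30 in each), senescent cells at 20% oxygen (population doubling 48), and old nonsenescent cells at 3% oxygen (population doubling 53). All cells came from 1 line and had no treatment other than the oxygen level. RNA was taken from whole cultures, so fewer cells that express a gene and less of its RNA per cell cannot be told apart. Each oxygen level had an incubator of its own, so that oxygen and incubator cannot be told apart, and the senescent and old cells differ in oxygen, in doublings and in senescence at the same time. The word biological in the labels is the only evidence of separate cultures, and p-values measure the spread between these arrays, which may in part be technical.

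Cells show class I molecules on their surface with short peptides taken from proteins made inside. A proteasome cuts the proteins, the TAP transporter carries the peptides into the endoplasmic reticulum, ERAP peptidases trim them, and tapasin helps load them onto a heavy chain (HLA-B, HLA-C and others) paired with beta-2-microglobulin. Type I interferon acts through the JAK kinases and STAT proteins on a DNA motif, the interferon-stimulated response element, and switches on antiviral genes; interferon gamma acts on a related motif, the gamma-activated site. Genes of class I presentation carry such elements too, and in addition a conserved Y box and its neighbours, to which the regulator NLRC5 is recruited. An interferon response is one of the features described in senescent fibroblasts in culture.

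The promoters of the 2 sets of genes were searched for the elements named above. The genes were listed as parts of the interferon response and class I presentation, so a high share with these elements follows in part from that choice. RefSeq windows on GRCh38.p14, running from 250 bases before to 50 after each start, were found for 33 of the 42 genes. TRIM22, USP18 and IFIT2, called in comparisons below, had no window, so their promoters were not searched. Of the 14 antigen presentation genes 12 had a window. HLA-E, PSMB9 and NLRC5, also called below, had either no window or no match to the motifs searched. The following stretches of HLA-B (chr6:31357210-31357349, minus strand), HLA-C (chr6:31272123-31272262, minus strand), HLA-F (chr6:29723264-29723403, plus strand) and B2M (chr15:44711347-44711486, plus strand) run from 170 to 31 bases before the start, 5′ to 3′ on the gene's strand. They are shown because these 3 heavy chain genes differed between groups while B2M, which encodes their shared partner, was not called. The heavy chain gene HLA-E differed as well, but had no match to mark. Capitals mark matches to a response element core (in B2M 2 overlapping ones) and, nearer the start, to the Y box:
HLA-B: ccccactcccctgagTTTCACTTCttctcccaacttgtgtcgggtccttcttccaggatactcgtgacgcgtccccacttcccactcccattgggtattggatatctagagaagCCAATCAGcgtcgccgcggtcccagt
HLA-C: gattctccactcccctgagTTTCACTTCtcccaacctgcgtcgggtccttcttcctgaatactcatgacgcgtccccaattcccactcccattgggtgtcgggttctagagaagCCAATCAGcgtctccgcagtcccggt
HLA-F: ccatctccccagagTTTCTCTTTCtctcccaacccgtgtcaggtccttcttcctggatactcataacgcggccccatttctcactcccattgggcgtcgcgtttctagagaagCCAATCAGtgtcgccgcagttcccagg
B2M: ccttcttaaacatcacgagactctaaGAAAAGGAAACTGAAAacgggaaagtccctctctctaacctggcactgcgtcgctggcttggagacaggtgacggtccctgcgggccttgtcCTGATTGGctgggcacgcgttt
The response element lies farther from the start than the Y box in all 4 windows. The first marked base of it is 155, 151, 156 and 144 bases before the start in HLA-B, HLA-C, HLA-F and B2M, and that of the Y box 56, 56, 57 and 52 bases before it.

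Among the interferon-stimulated genes, SAMD9 (chr7:93118080-93118139, minus strand, 160 to 101 bases before the start) is shown because it differed between all 4 pairs of groups compared. TRIM22 and USP18 differed between all 4 pairs as well, but had no window. IFIT1 (chr10:89392483-89392542, plus strand) and ISG15 (chr1:1013357-1013416, plus strand), both 140 to 81 bases before the start, are shown because they are classic targets of interferon and were called in no comparison. Capitals again mark the response element core, which occurs 2 times in IFIT1 and, overlapping, 2 times in ISG15:
SAMD9: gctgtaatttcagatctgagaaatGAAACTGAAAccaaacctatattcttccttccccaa
IFIT1: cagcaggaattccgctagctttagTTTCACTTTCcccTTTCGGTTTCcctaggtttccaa
ISG15: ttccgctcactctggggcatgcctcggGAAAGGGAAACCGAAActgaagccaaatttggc
The core, a pair of TTTC with any 2 bases between them, searched on both strands, occurred in 25 of the 33 windows (75.76%), in 9 of 12 of the antigen presentation genes and in 16 of 21 of the interferon-stimulated genes, against 4.38% of the 27305 genes with a window. The choice of interferon-related genes favours such a share. The variant with 1 base fewer, TTTCNNTTC, which is the one in HLA-B and HLA-C, occurred in 19 of 33 against 9.31% of all genes, and the 2 motifs can overlap. The gamma-activated site TTCNNNGAA was found in 9 of 33 against 9.38%. The Y box CTGATTGG was found in HLA-B, HLA-C, HLA-F and B2M, 4 of 33, against 4.75% of all genes. Of the 14 antigen presentation genes, 9 lie on chromosome 6, where most form part of the major histocompatibility complex, and none (0 of 28) of the interferon-stimulated genes does.

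The unit of all values below is log2 signal, with the median over the 12 arrays set to 0 for every probe set, and averaged over the probe sets of a gene. Differences between groups can be read from it, while absolute levels and the distance from background cannot, and for that reason the label of the cells could be checked by differences only. Fibroblast marker genes, 9 in all, averaged 0.32 in young cells at 20% oxygen (0.30 to 0.36 by array), -0.01 in senescent cells, -0.12 in young cells at 3% and -0.09 in old cells at 3%. In senescent against young cells at 20% oxygen 1 of the 9 was higher and 4 were lower (55.6%, against 12.5% of all genes). In young cells at 3% against 20%, 0 were higher and 4 lower (44.4% against 11.8%). In old against senescent cells 1 was higher and 2 were lower (33.3% against 11.0%), and between old and young cells at 3% 0 were called. The part of the fibroblast markers in the results was not tested. None of the 13 immune and 7 endothelial markers was called by limma in a comparison (0 of each; at an unadjusted p under 0.05, at most 2 and 1). Of the epithelial markers KRT19 (1 of 7) was lower in young cells at 3% than at 20%, a share of 14.3% that is near the 11.8% of all genes. Of the 4 markers of plasmacytoid dendritic cells TCF4 was lower in the senescent arrays than in those of young cells at 20% oxygen, more so than between the groups at 3% (the interaction was called), and it was higher in old than in senescent cells. The part of these genes in the results was not tested. Young cells at 3% oxygen, replicate 2, stood apart in RNA quality: its 3′ minus 5′ difference of ACTB was 0.71, against -0.22 to 0.35 on the other arrays. Without this array 6 of 14 antigen presentation genes were called between senescent and young cells at 20% oxygen, as with it, and 2 in place of 3 interferon-stimulated genes between old and young cells at 3%. Differences are given as log2 change ± SE with the adjusted p of limma's fit over all 12 arrays; a gene was called at an adjusted p under 0.05 over all 19775 genes, and the 3 arrays a group limit the precision.

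Antigen presentation in senescent cells was marked by the class I heavy chains. Senescent cells at 20% oxygen had more RNA of HLA-B, HLA-C, HLA-E and HLA-F than young cells at 20% oxygen, by 1.38 to 1.75-fold, whereas the transporter, tapasin and immunoproteasome genes were not called and the regulator NLRC5 was lower. Every probe set of HLA-B and HLA-C, and those of HLA-F with the larger rise, can also match other transcripts. The rises of these genes may therefore not be separate. Of the 14 genes, 5 were called higher and 1 lower; among all genes 4.67% were called higher and 7.84% lower (12.5% in all). The arrays of senescent and young cells did not overlap in 7 of the 14, against 29.3% of all genes. The median change of the 14 genes was 0.04, as was that of all genes (0.04), so the rise lay in part of the list. The moderated F test over the 4 groups called 7 of the 14 (HLA-B, HLA-C, HLA-E, HLA-F, ERAP2, PSMB9 and NLRC5), against 20.0% of all genes.

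HLA-B encodes 1 of the classical heavy chains that present peptides to cytotoxic T cells. Its signal was -0.19, -0.10 and -0.23 in the young cultures at 20% oxygen and 0.49, 0.58 and 0.60 in the senescent ones. The young cells at 3% read -0.11, 0.06 and 0.01, and the old cells at 3% lay between -0.08 and 0.06. The senescent arrays were thus above all 9 others, which spread over less than the gap to them. HLA-B rose by 0.73 ± 0.09 in senescent against young cells at 20% oxygen (1.66-fold, adjusted p = 1.18e-04). Old against young cells at 3% gave 0.01 ± 0.09 (adjusted p = 0.968), and the difference between the 2 changes was itself called (0.72 ± 0.12, adjusted p = 0.00339).

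HLA-C, the classical heavy chain that is also a main ligand of the inhibitory receptors of natural killer cells, ran the same course. It read -0.23, -0.09 and -0.30 in young and 0.54, 0.62 and 0.63 in senescent cells at 20% oxygen. Young cells at 3% lay between -0.22 and 0.09 and old cells at 3% between -0.07 and 0.13. It rose by 0.80 ± 0.10 in senescent cells (1.75-fold, adjusted p = 2.36e-04) and gave 0.04 ± 0.10 in old against young cells at 3% (adjusted p = 0.848). The 2 changes differed by 0.76 ± 0.15 (adjusted p = 0.00757). Every probe set of HLA-B and HLA-C can also match other transcripts, so HLA-C is not a separate observation.

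HLA-E, a nonclassical heavy chain that presents leader peptides of the other class I chains to natural killer cells, read 0.04, 0.01 and -0.07 in young and 0.46, 0.54 and 0.43 in senescent cells at 20% oxygen. At 3% oxygen it read -0.21, -0.28 and -0.15 in young and 0.03, -0.02 and -0.17 in old cells. The senescent arrays were again the highest, and the young arrays at 3% did not overlap those at 20%, though this difference was not called (-0.21 ± 0.09, adjusted p = 0.17; without the probe sets that can read relatives, -0.47, adjusted p = 0.0315). The rise in senescent cells was 0.48 ± 0.09 (1.40-fold, adjusted p = 0.00259). It was not shown to differ from the change at 3% oxygen (0.16 ± 0.09, difference 0.33 ± 0.12, adjusted p = 0.17).

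HLA-F, another nonclassical heavy chain, had the smallest rise of the 4, from -0.09, 0.02 and -0.01 in young to 0.34, 0.47 and 0.51 in senescent cells at 20% oxygen (0.47 ± 0.12, 1.38-fold, adjusted p = 0.0173). Old cells at 3% reached 0.14 at most, and young cells at 3% read -0.45, 0.02 and -0.12, with replicate 1 the lowest. The call ended without young replicate 1 at 20% oxygen (0.43, adjusted p = 0.0766) and without senescent replicate 2 or 3 (0.45 and 0.43, adjusted p = 0.056 and 0.0686). B2M encodes the light chain that every class I molecule needs. It read -0.12, -0.14 and 0.01 in young and 0.08, 0.17 and 0.11 in senescent cells at 20% oxygen. The arrays did not overlap, yet the difference of 0.20 ± 0.08 (95% interval 0.02 to 0.38) was not called (adjusted p = 0.159). The mean of the 4 heavy chains and B2M was -0.10, 0.44, -0.10 and 0.01 in young and senescent cells at 20% and young and old cells at 3%.

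**Figure D1:**
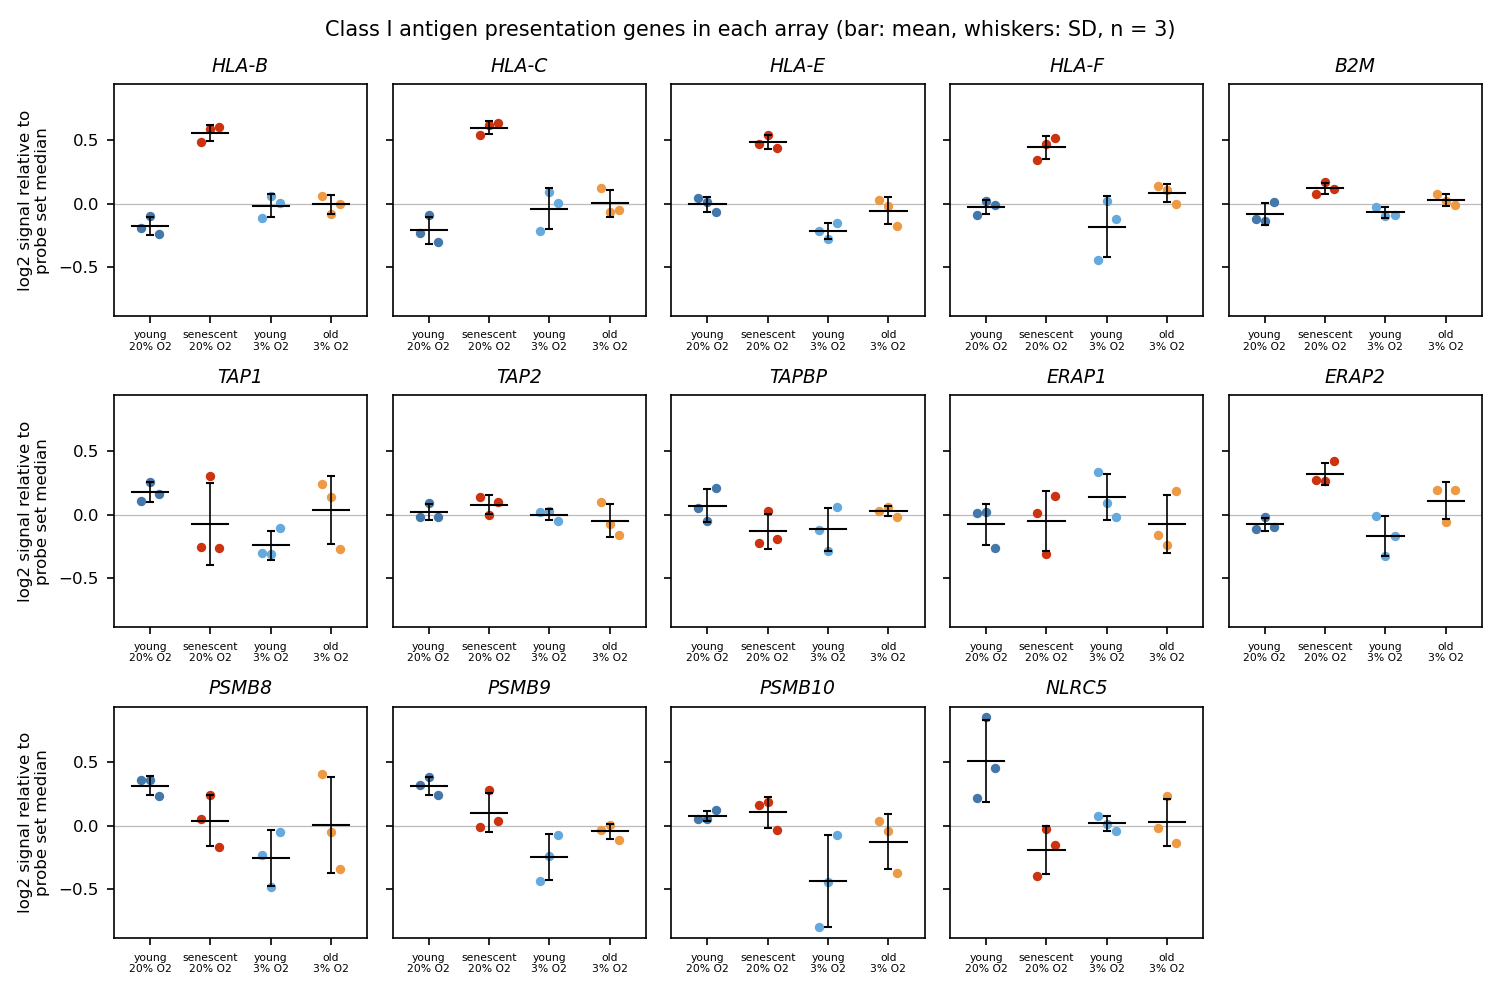
Log2 signal relative to the probe set median (vertical axis) of the 14 class I antigen presentation genes in each of the 12 arrays, by group, with the mean (bar) and SD (whiskers, n = 3). The senescent arrays of HLA-B, HLA-C and HLA-E, from 0.43 to 0.63, lie above all others, and NLRC5 is highest in young cells at 20% oxygen.

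The HLA genes are close relatives, and the maker of the array marks with the suffix _x_at those probe sets whose probes also match other transcripts. All 3 probe sets of HLA-B and all 4 of HLA-C carry it, so these 2 genes cannot be told from their relatives here. In senescent against young cells at 20% oxygen the HLA-B probe sets gave 0.67, 0.86 and 0.66 and the HLA-C probe sets 0.84, 0.62, 0.87 and 0.88. HLA-E has a probe set without the suffix, which gave 0.56, more than the 2 with it (0.44 and 0.45). HLA-F has a probe set without it as well, but that one gave 0.11 against 0.65 and 0.64 for the others. Without the suffixed probe sets HLA-F was not called (0.11, adjusted p = 0.857), 3 of the remaining antigen presentation genes were called in place of 6, and HLA-B and HLA-C had no value. The 3 probe sets of B2M gave 0.28, 0.31 and 0.02. Probe sets disagreed outside the HLA family too: those of ERAP2 gave 0.10, -0.07, 0.75, 0.63 and 0.58, and those of TAPBP 0.01, -0.77 and 0.16.

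**Figure D2:**
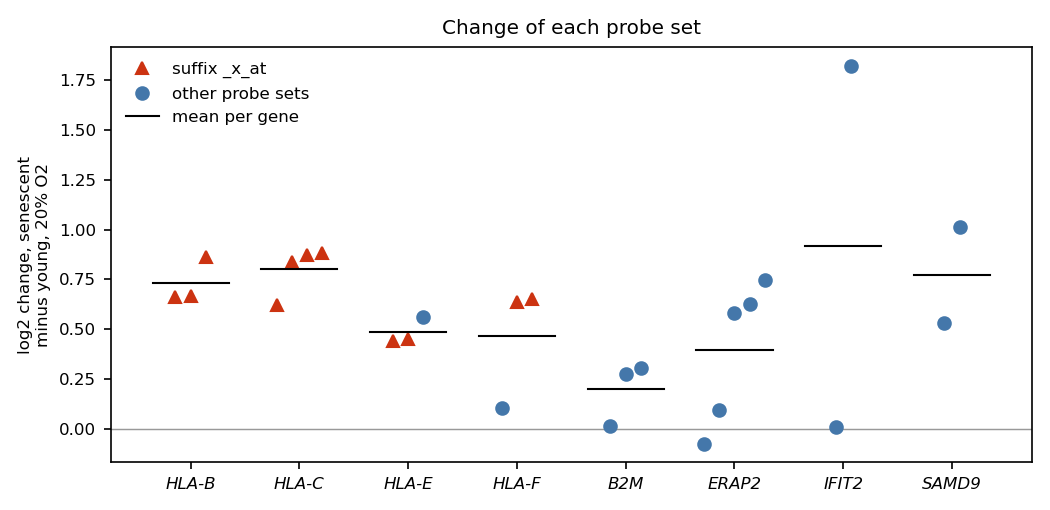
Log2 change of senescent against young cells at 20% oxygen (vertical axis) for every probe set of 8 genes; triangles carry the suffix _x_at, circles do not, and the bar is the mean per gene. The probe sets of HLA-B and HLA-C lie between 0.62 and 0.88, while the 2 of IFIT2 lie at 0.01 and 1.82.

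Of the genes that cut, carry, trim and load peptides, ERAP2 was the 1 called higher in senescent cells. ERAP2, a peptidase that trims peptides in the endoplasmic reticulum, read -0.11, -0.02 and -0.10 in young and 0.27, 0.26 and 0.42 in senescent cells at 20% oxygen and was called higher (0.40 ± 0.11, 1.32-fold, adjusted p = 0.0268). That call ended without any 1 of the 6 arrays. Leaving out young replicate 1, 2 or 3 gave adjusted p = 0.0993, 0.0571 or 0.0811, and leaving out senescent replicate 1, 2 or 3 gave 0.0604, 0.0505 or 0.108. Its relative ERAP1 gave 0.03 ± 0.15 (adjusted p = 0.961). The transporter subunits TAP1 and TAP2 gave -0.25 ± 0.16 and 0.06 ± 0.09, and TAPBP, which encodes tapasin, -0.20 ± 0.11; limma called 0 of these 3, with 0 at an unadjusted p under 0.05. The senescent arrays of TAP1 were spread, at -0.26, 0.30 and -0.26, around the young ones at 0.11, 0.26 and 0.16.

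NLRC5, the transactivator of class I genes, moved against the heavy chains. It read 0.21, 0.85 and 0.46 in young and -0.39, -0.03 and -0.15 in senescent cells at 20% oxygen, without overlap, and was lower in senescent cells (-0.70 ± 0.16, 1.62-fold lower, adjusted p = 0.00957). At 3% oxygen it read 0.08, 0.02 and -0.04 in young and -0.02, 0.23 and -0.13 in old cells. The young cells at 20% oxygen were the highest group, with the widest spread. The change at 3% was 0.01 ± 0.16, and the difference between the 2 changes was not called (-0.71 ± 0.22, adjusted p = 0.0858), except without young replicate 1 at 20% oxygen (-0.85, adjusted p = 0.0425). NLRC5 has 1 probe set.

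Of the antigen presentation genes, limma called 0 of 14 between old and young cells at 3% oxygen, where 1.74% of all genes were called; 2 of the 14 had an unadjusted p under 0.05. Their changes ran from -0.21 to 0.31 with a median of 0.15, against 0.05 for all genes, and the arrays did not overlap in 1 of 14, against 15.6% of all genes. The largest change was that of the immunoproteasome subunit PSMB10 (0.31 ± 0.16, adjusted p = 0.388). For HLA-B the 95% interval, -0.18 to 0.20, lay below the rise seen at 20% oxygen. HLA-F gave 0.26 ± 0.12 and ERAP2 0.28 ± 0.11 (adjusted p = 0.336 and 0.288), so changes of that size could not be resolved with 3 arrays a group.

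Between the young cells of the 2 oxygen levels 1 of the 3 immunoproteasome subunits, PSMB9, was called. PSMB8, PSMB9 and PSMB10 replace the catalytic subunits of the standard proteasome and favour cuts that give class I peptides. PSMB9 read 0.32, 0.38 and 0.24 at 20% oxygen and -0.43, -0.24 and -0.07 at 3%, and was lower at 3% (-0.56 ± 0.11, 1.47-fold lower, adjusted p = 0.00465). PSMB8 read 0.36, 0.36 and 0.23 at 20% and -0.23, -0.48 and -0.05 at 3%. PSMB10 read 0.05, 0.06 and 0.12 at 20% and -0.80, -0.44 and -0.08 at 3%. In these 3 genes the groups did not overlap, and at 3% oxygen replicate 3 was the closest to the cells at 20%. PSMB8 and PSMB10 missed the threshold (-0.57 ± 0.17 and -0.51 ± 0.16, adjusted p = 0.0548 and 0.0603). Without that replicate PSMB8 and PSMB10 were called too, and 3 of the 14 genes in place of 1 were lower.

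Thus 0 of the 14 antigen presentation genes were higher and 1 was lower in young cells at 3% oxygen, against 4.96% and 6.84% of all genes (11.8% in all). The arrays did not overlap in 6 of the 14, against 29.7% of all genes. NLRC5 gave -0.49 ± 0.16 (adjusted p = 0.0639) and TAP1 -0.42 ± 0.16 (adjusted p = 0.138), both with groups that did not overlap. The count of genes also moved when old replicate 1 or 3 at 3% was left out (2 and 3 genes) or young replicate 1 at 20% (2 genes). HLA-B and HLA-C gave 0.16 ± 0.09 and 0.17 ± 0.10 (adjusted p = 0.308 and 0.371).

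In old cells at 3% oxygen, which had passed more doublings than the senescent cells without being senescent, the heavy chains were lower than in the senescent cells. HLA-B gave -0.56 ± 0.09 (1.48-fold lower, adjusted p = 8.07e-04), HLA-C -0.59 ± 0.10 (1.51-fold lower, adjusted p = 0.00207) and HLA-E -0.53 ± 0.09 (1.45-fold lower, adjusted p = 0.00124). These 3 of 14 were called lower and 0 higher, against 4.41% and 6.59% of all genes (11.0% in all), and the arrays did not overlap in 6 of 14, against 24.3% of all genes. Same-numbered senescent and old arrays deviated together, and with the replicate number as a block in a fit of these 2 groups HLA-F was called lower as well (-0.36, adjusted p = 0.0415), as it was in the fit of 4 groups without young replicate 1 or 2 at 3% (adjusted p = 0.021 and 0.0428). The block was chosen from these data, so its added call is no independent support. The comparison of old with senescent cells shares its senescent arrays with the first comparison, so a high senescent value enters both.

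The interferon-stimulated genes did not move as a set. Between senescent and young cells at 20% oxygen 3 of 28 were called higher (TRIM22, IFIT2 and SAMD9) and 1 lower (USP18), 14.3% of them against the 12.5% of all genes. Between old and young cells at 3%, 3 were higher (SAMD9, USP18 and TRIM22) and 0 lower, against 0.981% and 0.759% of all genes. In young cells at 3% against 20% oxygen SAMD9 was higher and TRIM22 and USP18 were lower, 10.7% of the 28 against 11.8% of all genes. In old cells at 3% against senescent cells SAMD9 and USP18 were higher and TRIM22 and IFIT2 lower, 14.3% against 11.0%. The arrays did not overlap in 11, 6, 9 and 8 of the 28 in these 4 comparisons, against 29.3%, 15.6%, 29.7% and 24.3% of all genes. Median changes were 0.09, 0.03, 0.01 and -0.06, against 0.04, 0.05, -0.03 and -0.02 for all genes. The F test over the 4 groups called 5 of 28 (the 4 genes named and IFI6), against 20.0% of all genes. The test of whether the change at 20% differed from that at 3% oxygen called 2 of 28 higher and 1 lower, and 2 of the 14 antigen presentation genes higher and 0 lower, against 2.06% and 4.37% of all genes (6.44% in all).

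TRIM22, a RING finger protein that restricts several viruses, had the largest difference between 2 groups among the 42 genes. It read 0.25, 0.19 and 0.24 in young and 1.23, 1.35 and 1.28 in senescent cells at 20% oxygen, and -0.78, -0.87 and -0.99 in young and -0.19, -0.41 and -0.38 in old cells at 3%. The 4 groups did not overlap, with senescent cells highest, then young cells at 20%, old cells at 3% and young cells at 3%. TRIM22 rose by 1.06 ± 0.09 in senescent cells (2.09-fold, adjusted p = 9.47e-06) and by 0.56 ± 0.09 in old cells at 3% (1.47-fold, adjusted p = 0.00736). It was lower in young cells at 3% than at 20% by -1.11 ± 0.09 (2.16-fold lower, adjusted p = 4.19e-06) and in old than in senescent cells by -1.61 ± 0.09 (3.06-fold lower, adjusted p = 1.39e-07). TRIM22 has 1 probe set. Its rise at 3% was not called after quantile normalization (0.64, adjusted p = 0.141) or in a fit of those 2 groups alone (0.56, adjusted p = 0.114).

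SAMD9, an antiviral and growth-restraining protein, was higher both at later doublings and at lower oxygen. It read -0.80, -0.93 and -0.90 in young and 0.04, -0.12 and -0.25 in senescent cells at 20% oxygen. At 3% it read 0.06, -0.09 and 0.02 in young and 0.99, 0.84 and 0.78 in old cells. Young cells at 20% were the lowest and old cells at 3% the highest group, and the senescent and the young 3% arrays between them overlapped. The rise was 0.77 ± 0.10 from young to senescent cells at 20% (1.71-fold, adjusted p = 2.47e-04) and 0.87 ± 0.10 from young to old cells at 3% oxygen (1.83-fold, adjusted p = 5.02e-04), and the 2 were not shown to differ (-0.10 ± 0.14, adjusted p = 0.758). At 20% oxygen doublings and senescence cannot be told apart. Young cells at 3% were above young cells at 20% by 0.88 ± 0.10 (1.84-fold, adjusted p = 7.02e-05) and old above senescent cells by 0.98 ± 0.10 (1.97-fold, adjusted p = 2.72e-05). Its 2 probe sets agreed in sign, with 0.53 and 1.01 at 20% and 1.13 and 0.61 at 3% oxygen. With the more variable of them alone, the changes from young cells at 20% to senescent cells and to young cells at 3% were not called (0.53 and 0.60, adjusted p = 0.0982 and 0.0608).

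USP18, the protease that removes ISG15 from proteins and restrains interferon receptor signalling, ran in opposite directions at the 2 oxygen levels. It read 0.62, 0.49 and 0.76 in young and -0.26, -0.21 and -0.52 in senescent cells at 20% oxygen. At 3% it read -0.13, -0.40 and -0.18 in young and 0.72, 0.47 and 0.13 in old cells. Young cells at 20% and old cells at 3% were high and overlapped, and the other 2 groups were low and overlapped. It was lower in senescent than in young cells (-0.96 ± 0.15, 1.94-fold lower, adjusted p = 8.89e-04) and higher in old than in young cells at 3% (0.68 ± 0.15, 1.60-fold, adjusted p = 0.0394). The difference between the 2 changes was called (-1.64 ± 0.21, adjusted p = 4.44e-04). The rise at 3% is the less certain: it was not called without any 1 of 9 arrays. The adjusted p was 0.159 and 0.148 without old replicate 1 and 2, and 0.0685, 0.143 and 0.0881 without young replicate 1, 2 and 3 at 3%. It was 0.0704, 0.0531 and 0.0512 without young replicate 1, 2 and 3 at 20%, and 0.0654 without senescent replicate 1. With the ACTB 3′ minus 5′ difference as a covariate the rise was 0.56 (adjusted p = 0.0659). USP18 was lower in young cells at 3% than at 20% (-0.86 ± 0.15, adjusted p = 0.00173) and higher in old than in senescent cells (0.77 ± 0.15, adjusted p = 0.00387).

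IFIT2, of the family of RNA-binding proteins that block viral translation, read -0.46, -0.20 and -0.48 in young and 0.74, 0.46 and 0.41 in senescent cells at 20% oxygen (0.92 ± 0.15, 1.89-fold, adjusted p = 0.00125). At 3% it read 0.15, -0.21 and 0.23 in young and 0.19, -0.05 and -0.24 in old cells, which overlapped (-0.09 ± 0.15, adjusted p = 0.764). The senescent arrays were the highest, and the rise at 20% exceeded the change at 3% (1.01 ± 0.21, adjusted p = 0.012). It rested on 1 of 2 probe sets, since they gave 1.82 and 0.01. Old cells were lower than senescent cells (-0.57 ± 0.15, adjusted p = 0.0258), a call lost without old replicate 2 or 3 (adjusted p = 0.078 and 0.0921) or senescent replicate 1 (adjusted p = 0.119).

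**Figure D3:**
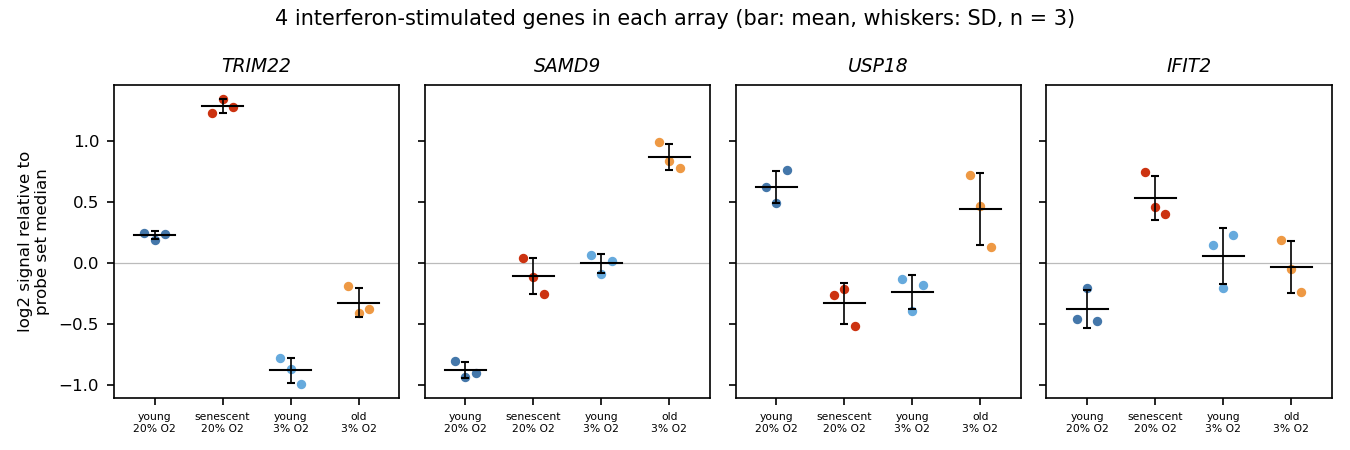
Log2 signal relative to the probe set median (vertical axis) of TRIM22, SAMD9, USP18 and IFIT2 in each array, by group, with the mean (bar) and SD (whiskers, n = 3). The order of the groups differs from gene to gene: TRIM22 is highest in senescent cells (1.23 to 1.35) and SAMD9 in old cells at 3% oxygen (0.78 to 0.99).

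The other IFIT genes and most classic antiviral genes were not called. IFIT1 read -0.19, -0.07 and -0.10 in young and 0.09, -0.07 and 0.11 in senescent cells at 20% oxygen (0.16 ± 0.10, adjusted p = 0.439). IFIT3 gave 0.29 ± 0.11 and IFIT5 -0.32 ± 0.12 (adjusted p = 0.133 and 0.101), so that 1 of the 4 family members was called. In this comparison 3 of the 4, IFIT2 among them, had an unadjusted p under 0.05 in limma. The arrays did not overlap in 4 of 4, against 29.3% of all genes. The OAS enzymes make the second messenger that activates RNase L. Of OAS1, OAS2, OAS3, OASL and the exonuclease ISG20, limma called 0 of 5, with 1 at an unadjusted p under 0.05: OAS1, which read -0.08, -0.10 and -0.08 in young and 0.11, 0.36 and 0.29 in senescent cells (0.34 ± 0.12, adjusted p = 0.0898). The block by replicate number called OAS1 lower in old than in senescent cells (-0.35, adjusted p = 0.0297).

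MX1 and MX2, GTPases that block viral nucleocapsids, gave -0.01 ± 0.20 and -0.05 ± 0.12 between senescent and young cells at 20% oxygen (adjusted p = 0.989 and 0.893). The senescent arrays of MX1 were spread from -0.22 to 0.58 and the young ones from -0.10 to 0.42, so that its 95% interval ran from -0.44 to 0.42. RSAD2 (viperin) gave 0.08 ± 0.11. BST2, the tetherin that holds budding virus on the cell, read 0.23, -0.01 and 0.44 in young cells at 20% and -0.98, -0.35 and 0.02 in young cells at 3% oxygen, overlapping and not called (-0.66 ± 0.22, adjusted p = 0.0789; without young replicate 3 at 3%, -0.89, adjusted p = 0.0173).

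ISG15, the ubiquitin-like protein that USP18 removes, read -0.09, -0.26 and 0.15 in young and 0.12, 0.44 and 0.18 in senescent cells at 20% oxygen. The arrays overlapped (0.32 ± 0.15, adjusted p = 0.243). HERC5, its ligase, gave 0.25 ± 0.13 (adjusted p = 0.308). Limma called 0 of these 2 in this comparison, with 0 at an unadjusted p under 0.05.

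IFI6, a mitochondrial and endoplasmic reticulum protein induced by interferon, was called by the F test (adjusted p = 0.0457) and in no pair of groups. It read -0.30, -0.52 and -0.24 in young cells at 3% oxygen, its lowest group (-0.36 ± 0.12 against young cells at 20%, adjusted p = 0.0657), and the F test lost it without any 1 of 10 arrays (all but old replicate 1 and 3). IFI35 read -0.58, -0.72 and -0.09 in young and 0.47, 0.28 and -0.23 in old cells at 3%, overlapping in replicate 3 of each (0.64 ± 0.21, adjusted p = 0.195). IFI35 was also low in young cells at 3% against 20% (-0.62 ± 0.21, adjusted p = 0.0787), and called there without young replicate 3 at 3% (adjusted p = 0.0283) or old replicate 3 (adjusted p = 0.0411). In that comparison 5 of the 28 genes in place of 3 were called without either array. IFI27 gave 0.34 ± 0.17 between senescent and young cells at 20% oxygen, IFI44 0.02 ± 0.18, IFI44L -0.08 ± 0.13 and XAF1 -0.07 ± 0.09, with adjusted p from 0.277 to 0.97.

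Of the regulators, IRF1, a factor that drives class I and immunoproteasome genes, read 0.10, 0.18 and 0.09 in young and -0.03, 0.01 and -0.26 in senescent cells at 20% oxygen. The arrays did not overlap, with senescent cells lower, and the change was not called (-0.22 ± 0.10, adjusted p = 0.224). IRF7, which amplifies interferon production, gave 0.37 ± 0.18 (adjusted p = 0.283) and IFIH1, the sensor of long double-stranded RNA also known as MDA5, 0.21 ± 0.17 (adjusted p = 0.603). IRF9, the DNA-binding part of the factor that reads the response element, gave -0.39 ± 0.17 (adjusted p = 0.22). In old against senescent cells IRF9 gave 0.45 ± 0.17 (adjusted p = 0.144), called higher with the replicate block (adjusted p = 0.014). A probe set naming both RNF31 and IRF9 was left out.

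**Figure D4:**
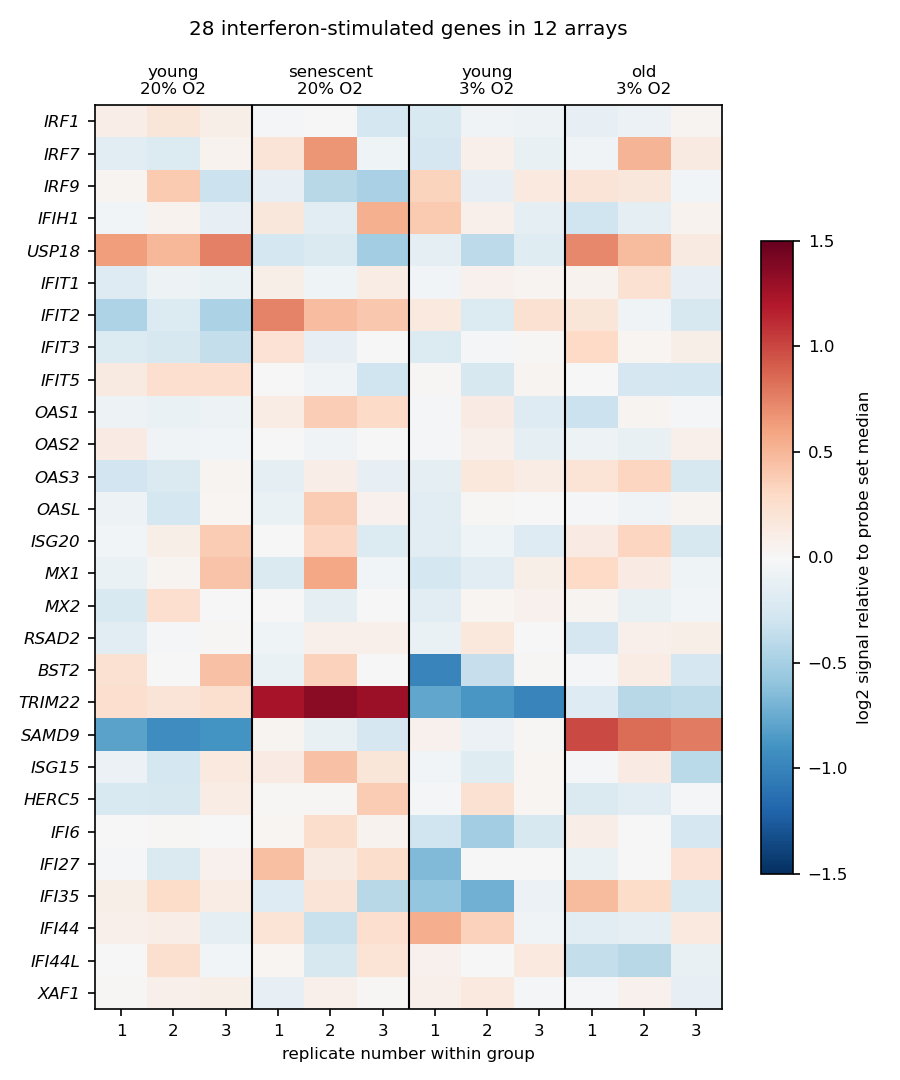
Log2 signal relative to the probe set median (colour) of the 28 interferon-stimulated genes (rows) in the 12 arrays (columns, by group and replicate number). TRIM22 (-0.99 to 1.35) and SAMD9 (-0.93 to 0.99) span the range of the map, while OAS2, from -0.13 to 0.12, is near white throughout.

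Genes of the pathway outside the 2 lists were followed in a wider list of 95 measured genes (interferons, receptors, kinases, sensors, inhibitors, other interferon-stimulated and presentation genes, and class II genes). Between senescent and young cells at 20% oxygen 5 were higher and 12 lower. Between old and young cells at 3%, 1 was higher and 0 lower; between young cells at 3% and 20% oxygen 2 were higher and 14 lower; between old and senescent cells 4 were higher and 8 lower. These are 17.9%, 1.05%, 16.8% and 12.6% of the list, against 12.5%, 1.74%, 11.8% and 11.0% of all genes. Their medians were 0.02, 0.06, -0.09 and -0.06. Of these calls 12 of 17, 1 of 1, 12 of 16 and 5 of 12 were kept without any 1 array. With the replicate number of the senescent and old arrays as a block, 11 of the 12 calls between them were kept, SP100 was lost (adjusted p = 0.0506), and GBP2 (0.55) and DTX3L (0.32) were called higher and UBE2L6 (-0.48) and CXCL10 (-0.57) lower.

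Among interferons and their receptors, IFNB1, the main type I interferon of fibroblasts, lay between -0.06 and 0.24 on all arrays (0.06 ± 0.11 in senescent cells, adjusted p = 0.855). IFNE, a type I interferon known from the epithelium of the reproductive tract, read 0.73, 1.06 and 1.09 in young cells at 20% oxygen and between -0.56 and 0.21 in the other 3 groups. It was lower in senescent cells (-1.06 ± 0.19, 2.08-fold lower, adjusted p = 0.00245) and in young cells at 3% oxygen (-1.09 ± 0.19, 2.13-fold lower, adjusted p = 0.00183). The receptor chains IFNAR1, IFNAR2, IFNGR1 and IFNGR2 gave 0.04, 0.02, 0.11 and 0.02 in senescent cells; limma called 0 of 4, with 0 at an unadjusted p under 0.05. IFNGR2 was lower in old than in senescent cells (-0.47 ± 0.09, adjusted p = 0.0048). The kinases JAK1, JAK2 and TYK2 gave 0.20 ± 0.11, -0.16 ± 0.11 and -0.02 ± 0.13 in senescent cells, with adjusted p of 0.329 or more.

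Several genes that interferon induces were highest in the young cells at 20% oxygen. IFITM1, which blocks the entry of viruses through membranes, read 1.25, 1.09 and 0.84 there, 0.07, 0.12 and -0.07 in senescent cells, -0.97, -1.32 and -0.98 in young and 0.19, -0.19 and -0.23 in old cells at 3%. It was lower in senescent cells (-1.02 ± 0.15, 2.03-fold lower, adjusted p = 5.02e-04), higher in old than in young cells at 3% (1.01 ± 0.15, 2.02-fold, adjusted p = 0.00288) and lower in young cells at 3% than at 20% (-2.15 ± 0.15, 4.43-fold lower, adjusted p = 8.36e-07). GBP2, a guanylate-binding GTPase, read 1.22, 1.03 and 0.84 in young and -0.45, -0.43 and -0.17 in senescent cells at 20% oxygen (-1.38 ± 0.18, 2.60-fold lower, adjusted p = 2.94e-04). GBP1, of the same family, read 0.60, 0.77 and 0.66 in young and 0.04, -0.04 and -0.10 in senescent cells (-0.71 ± 0.10, 1.63-fold lower, adjusted p = 4.08e-04). In these 3 genes the young cells at 20% oxygen did not overlap any other group.

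Other members of the wider list ran the other way. IFI16, a nuclear DNA sensor, read -0.53, -0.51 and -0.39 in young and 0.32, 0.31 and 0.20 in senescent cells at 20% oxygen, and rose by 0.75 ± 0.09 (1.69-fold, adjusted p = 1.04e-04). SP100, a component of nuclear bodies, rose by 0.57 ± 0.08 (1.49-fold, adjusted p = 3.54e-04). Both rises exceeded the change at 3% oxygen (IFI16 0.88 ± 0.12, adjusted p = 9.76e-04; SP100 0.58 ± 0.11, adjusted p = 0.00746). HLA-G, another nonclassical heavy chain, rose by 0.59 ± 0.12 (1.51-fold, adjusted p = 0.0058) beside its relatives named above; all 4 of its probe sets carry the suffix _x_at, and with the most variable of them alone it was not called (adjusted p = 0.0589). IRF2, which binds the same element as IRF1, gave 0.69 ± 0.16 (adjusted p = 0.0123), lost without young replicate 1 at 20% (adjusted p = 0.0645) or senescent replicate 1 (adjusted p = 0.0536).

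Most calls in young cells at 3% against 20% oxygen were lower, 14 of 16. IFITM2 and IFITM3 were lower with IFITM1 (-0.93 ± 0.12 and -0.71 ± 0.10, adjusted p = 2.67e-04 and 3.57e-04), as were GBP1, GBP2 and GBP3 (-0.98 ± 0.10, -1.12 ± 0.18 and -0.80 ± 0.13), and LGALS3BP, a secreted glycoprotein (-0.90 ± 0.16, adjusted p = 0.00256). Of the 37 measured interferon-stimulated genes of this list 11 were lower and 0 higher, beside 2 lower and 1 higher of the 28 above, against 6.84% lower and 4.96% higher of all genes. IFITM2 and IFITM3 were read by probe sets with the suffix _x_at alone, so these 2 cannot be told from their relatives. Class II genes, which serve cells that present antigens to helper T cells, had 1 of 9 lower (HLA-DMA, -0.67 ± 0.14, adjusted p = 0.00691), a share of 11.1% that is near the 11.8% of all genes called in this comparison.

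**Figure D5:**
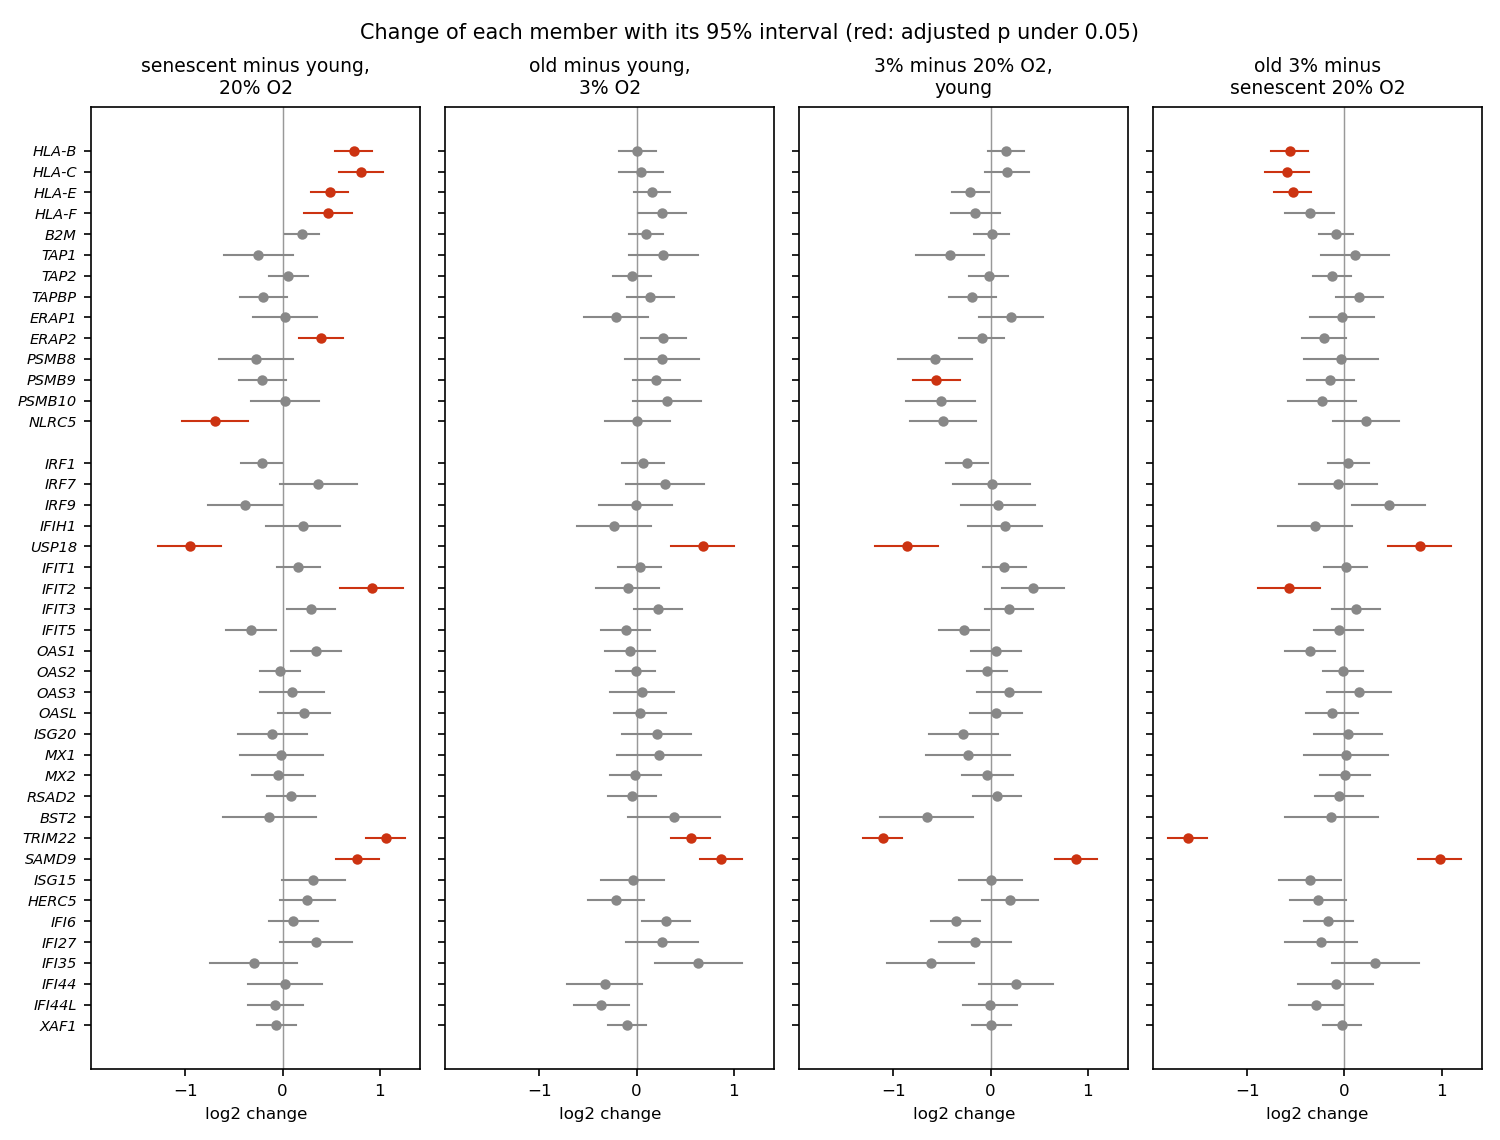
Log2 change (horizontal axis) of each of the 42 genes in the 4 comparisons, with its 95% interval; red marks an adjusted p under 0.05 in limma, and antigen presentation genes are above the interferon-stimulated genes. Red points of antigen presentation are the 5 rises and the fall of NLRC5 in senescent cells, PSMB9 in young cells at 3% oxygen, and HLA-B, HLA-C and HLA-E in old against senescent cells.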

How the data were processed

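Total RNA of 12 IMR-90 cultures (extracted with TRIzol, per the labels' protocols) was read on Affymetrix arrays of 54675 probe sets. The values deposited by the authors were made with RMA, per the submitters' processing notes, whose version and settings are not given in the sources used here. As deposited, the values are read here as log2 values from the authors' RMA; the base is not stated and is assumed from RMA. Each probe set is centred on its median over the 12 arrays (largest absolute median 5e-07), so levels, background and dim probes cannot be read. Scanner files were not analysed here. There were 0 missing values. Of the probe sets 41091 name 1 gene; their Entrez numbers gave current symbols for 41037, and the mean per gene gave 19775 genes. Probe sets naming several genes (1801) and 62 controls were left out. The 42 measured genes have 83 probe sets, 19 genes having 1 and 23 several.

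Group means of all 12 arrays were fitted with limma 3.58.1 in R 4.3.3 (lmFit, eBayes, two-sided, 8 residual degrees of freedom), with 4 differences between groups, their interaction and an F test, adjusted by Benjamini-Hochberg over all genes. An exact permutation test of 3 against 3 arrays cannot go below p = 0.1 and was not used. Simulated data for senescent against young cells at 20% oxygen had 80, 80 and 40 of 19775 genes changed by 0.5, 1 and 2 log2 units. The fit recovered 27.5%, 87.5% and 100% of them. In the data more genes, 2474, were called, which makes the adjusted threshold less strict than in the simulation. These shares may therefore not hold for the data, where changes near 0.5 can still be missed. No 2 arrays were duplicates (largest correlation 0.739). Deviations of same-numbered arrays correlated over 0.1 in all 3 pairs (0.129, 0.519 and 0.669) for senescent and old cells and for no other pair of groups, so the replicate number was taken to pair those groups on this evidence from the data. The deviations within a group cancel out, so the 3 correlations are not independent. Because the block was chosen from the same data, the calls gained with it carry no independent support.

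The genes and lists were chosen with earlier results of these data known. Any of the 43 listed genes could be named; of the wider list, those called or among the 4 largest changes in a comparison, and the interferon, receptor and kinase genes. Motifs were searched as exact letters in RefSeq promoter windows of GRCh38.p14. Alternatives tried were another collapse of probe sets, quantile normalization, median centring, a filter on flat genes, a fit of 2 groups, a replicate block, leaving out each array, and a threshold of 0.01. The ACTB 3′ minus 5′ difference as a covariate and leaving out probe sets with the suffix _x_at, and the replicate block for the wider list, were added after seeing the data.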

Additional observations from a re-analysis of the deposited data

Results flagged for a closer look

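For 5 of the 42 genes the change from young to senescent cells at 20% oxygen differed from the change from young to old cells at 3% oxygen in limma's test of the interaction (2 of 14 antigen presentation and 3 of 28 interferon-stimulated genes, against 6.44% of all genes). The first change minus the second was 0.72 ± 0.12 for HLA-B (0.73 against 0.01, adjusted p = 0.00339) and 0.76 ± 0.15 for HLA-C (0.80 against 0.04, adjusted p = 0.00757). HLA-B and HLA-C were read by probe sets that can match each other's relatives, so they are not separate observations. The first change minus the second was 1.01 ± 0.21 for IFIT2 (0.92 against -0.09, adjusted p = 0.012) and -1.64 ± 0.21 for USP18 (-0.96 against 0.68, adjusted p = 4.44e-04), the 1 gene of the 5 whose changes were called in opposite directions. For TRIM22 it was 0.50 ± 0.13 (1.06 against 0.56, adjusted p = 0.0371), a call kept in 4 of 20 alternatives. It was lost without any 1 of 10 arrays (all but old replicate 1 and young replicate 3 at 3%), with adjusted p from 0.0615 to 0.0983, after quantile normalization (0.2), with the replicate block (0.0564), with flat genes out (0.071), with the most variable probe set per gene (0.0871), with the ACTB covariate (0.0524) and at a threshold of 0.01. Whether TRIM22 rose more at 20% oxygen is therefore uncertain. Old cells at 3% had passed 53 doublings and senescent cells 48, so oxygen, doublings and senescence cannot be told apart in these differences.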

How the results depend on the processing

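The counts of called genes in the 2 lists (12 counts, 256 recomputed values) were within 1.5 times the reported count in 234 and no change of a called gene reversed; 18 of 29 called changes were kept in every alternative. With an adjusted p under 0.01, 4 antigen presentation genes in place of 7 were called by the F test and 1 interferon-stimulated gene in place of 3 in the interaction. Without probe sets of the suffix _x_at, which removes HLA-B and HLA-C from the test, antigen presentation had 4 genes by the F test, 0 in place of 2 in the interaction, 1 in place of 3 in old against senescent cells, 3 in place of 6 in senescent against young cells, and 2 in place of 1 in young cells at 3% against 20%. In this last comparison it had 3 with the flat genes out, with the 2 groups alone and after quantile normalization, and 2 after median centring. The replicate block, where the numbers share no more than a label, gave antigen presentation 2 genes in young cells at 3% against 20% (12 arrays or 2 groups) and 3 in senescent against young cells (2 groups). There HLA-E was lost (adjusted p = 0.0562), as were ERAP2 (0.108) and HLA-F (0.0611). For old against young cells at 3% interferon-stimulated genes fell from 3 to 1 in a fit of 2 groups and to 0 with the block in 2 groups, where SAMD9 had an adjusted p of 0.0895. Without 1 array at a time, antigen presentation counts were 5 to 8 (F test), 2 to 3 (interaction), 3 to 4 (old against senescent), 0 (old against young), 4 to 6 (senescent against young) and 1 to 3 (oxygen), and interferon-stimulated counts 4 to 6, 2 to 4, 3 to 4, 2 to 3, 4 and 3 to 5. Among the 42 genes the block changed no other call between old and senescent cells than those given for HLA-F, IRF9 and OAS1. With the ACTB covariate the calls lost were USP18 in old against young cells and TRIM22 in the interaction. With the most variable probe set TAPBP was lower in senescent cells (-0.77, adjusted p = 0.0182). The cause of these shifts was not tested beyond the genes and arrays removed. Of 55 calls in the wider list, 50 were kept after quantile normalization and 52 after median centring, with the sign kept in 55.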
